A study of Mus musculus with 8 samples.

Results

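The 9 genes described here, Spi1, Cebpa, Cebpb, Cebpe, Irf8, Irf4, Klf4, Gfi1 and Runx1, encode transcription factors that direct the myeloid lineages of the bone marrow. They were taken by symbol from the deposited table of raw counts, where all 9 were present among 24062 genes, and each was among the 13197 genes kept by the filter on low counts. They were followed in immature myeloid cells (IMCs) of 4 groups, each with 2 libraries and each grown for 3 days from marrow of 2-month-old C57BL/6 mice in medium with M-CSF at 40 ng per mL, the growth factor of the monocyte and macrophage lineage. PARP1 WT mice carried floxed Parp1 (PARP1 flox/flox) without Cre, and PARP1CKO mice carried the same alleles with lysozyme-Cre, which is driven by the Lyz2 locus in myeloid cells. PARP2 WT mice were PARP2 flox/flox without Cre, and PARP2CKO mice were PARP2 flox/flox with lysozyme-Cre. All 4 groups thus carried a floxed gene, both CKO groups carried Cre, and no group carried Cre without a floxed gene. The series describes the pair of libraries in a group as biological duplicates without saying whether they came from separate mice, and the p-values measure the spread between these libraries.

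In the marrow, PU.1, the product of Spi1, opens the enhancers of most myeloid genes and is needed at high level for macrophages and at lower level for granulocytes and B cells. RUNX1 acts before PU.1 and helps to switch on Spi1, and C/EBPα carries progenitors to the stage shared by granulocytes and monocytes. From there C/EBPε and GFI1 serve the granulocytic branch, in which GFI1 represses monocytic genes, whereas IRF8 and KLF4 serve the monocytic branch and IRF4 serves dendritic cells and alternatively activated macrophages. C/EBPβ supports emergency granulopoiesis and the inflammatory genes of mature macrophages.

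Promoter sequence is shown for Cebpa, Cebpb and Irf8, which together with Gfi1 separated the floxed lines in these data. RefSeq (GRCm38.p6) had promoter entries for 7 of the 9 genes, and the windows below are the 250 bases before the annotated start, 5′ to 3′ on the gene's strand, which is the plus strand for all 3 genes. Capitals mark matches, on either strand, to the TATA box TATAAA and the GC box GGGCGG. The windows lie at chr7:35119043-35119292, chr2:167688665-167688914 and chr8:120736108-120736357.
Cebpa: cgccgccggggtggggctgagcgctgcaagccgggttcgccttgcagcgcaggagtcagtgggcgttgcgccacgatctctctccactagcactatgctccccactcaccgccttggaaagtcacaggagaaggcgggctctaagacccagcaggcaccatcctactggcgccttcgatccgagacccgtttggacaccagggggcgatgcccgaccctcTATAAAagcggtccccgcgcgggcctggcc
Cebpb: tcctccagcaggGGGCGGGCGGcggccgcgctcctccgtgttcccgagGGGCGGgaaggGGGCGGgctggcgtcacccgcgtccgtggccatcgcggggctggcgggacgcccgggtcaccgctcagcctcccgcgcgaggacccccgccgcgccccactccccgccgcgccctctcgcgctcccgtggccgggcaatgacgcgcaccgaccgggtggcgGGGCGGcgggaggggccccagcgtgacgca
Irf8: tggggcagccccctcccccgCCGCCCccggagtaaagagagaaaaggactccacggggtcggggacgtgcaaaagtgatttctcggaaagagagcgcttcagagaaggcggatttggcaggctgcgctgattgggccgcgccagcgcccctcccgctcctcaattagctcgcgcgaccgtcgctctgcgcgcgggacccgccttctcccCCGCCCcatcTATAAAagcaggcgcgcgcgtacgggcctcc

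Cebpa and Irf8 each held a TATA box, from -30 to -25 and from -31 to -26 relative to the start, whereas Cebpb held 5 GC boxes, of which a pair overlaps by 2 bases, and no TATA box. Irf4 also held a TATA box, from -26 to -21. TATAAA was present in 12.4% of the 32851 promoter windows searched in the same way, and GGGCGG in 32.7%. Windows were also searched for GGAAGT (the core bound by PU.1, in 19.7% of windows), TTNNGNAA (C/EBP, 36.8%), TGTGGT (RUNX, 14.0%) and AANNGAAA (IRF, 21.3%). Among all windows of the 7 genes these gave 1 C/EBP match, before Gfi1, and 3 IRF matches, 1 before another start of Gfi1 and 2 before the distal start of Runx1. A match is a description of letters, and these data hold no measure of binding. GC made up 66.4%, 81.6% and 67.2% of the Cebpa, Cebpb and Irf8 windows, against a median of 52.4% over all windows.

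The libraries held between 37852450 and 61845125 counts on genes. The targeted genes were lower in the CKO libraries. Parp1 had 202 and 211 CPM in PARP1 WT, against 63.2 and 59.1 CPM in PARP1CKO, and lay between 155 and 264 CPM in the PARP2 line. Parp2 had 48.2 and 48.3 CPM in PARP2 WT, against 25.7 and 25.6 CPM in PARP2CKO, and lay between 37.0 and 40.8 CPM in the PARP1 line. Here CPM stands for counts per 1000000 counts of a library scaled by edgeR's TMM factor. Of the genes for the surface proteins that mark IMCs, Itgam (CD11b) lay between 881 and 1035 CPM, Ly6c2 between 53.9 and 72.2 CPM and Ly6c1 between 0.605 and 1.02 CPM over the 8 libraries, while Ly6g was not matched in the table. The macrophage genes Cd68 and Mrc1 had means of 1747 and 663 CPM and the granule gene Ngp 947 CPM, so transcripts of both branches were present. No matched marker of B, T and NK, erythroid, basophil and mast, osteoclast or stromal cells was at 0 in all 8 libraries, but several were near 0. The osteoclast gene Calcr had 1 count, in PARP1 WT replicate 2 alone, and the NK cell gene Ncr1 had at most 2 counts in a library. Counts this low do not show that such cells were present. Trbc2 of the T and NK cell list was not matched. The B cell list summed to between 8.31 and 44.5 CPM and the T and NK cell list to between 2.06 and 3.31 CPM.

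Spi1 had the highest level of the 9 genes and Irf4 the lowest. Levels of different genes are compared per length, as CPM per kb of the merged exons of GENCODE M21 basic transcripts. By this measure Spi1 had 101 CPM per kb over the 8 libraries, above 95.1% of 12525 genes, followed by Irf8 at 40.1 and Cebpa at 20.2 CPM per kb. Cebpb followed at 9.96, Runx1 at 7.70, Cebpe at 7.67 and Klf4 at 6.02 CPM per kb, in the middle of the range of all genes. Gfi1, at 1.89, and Irf4, at 1.48 CPM per kb, came last, and Irf4 was above 23.3% of genes. The ranges over the 8 libraries of Runx1 and Cebpe overlapped, and so did those of Cebpe and Klf4 and those of Gfi1 and Irf4, whereas no library range of Spi1, Irf8 or Cebpa overlapped that of the gene next below. The lowest library of Cebpb (8.111 CPM per kb) and the highest of Runx1 (8.109) almost met, and the highest of Cebpe reached above it. Runx1 was above Cebpe in 4 of 8 libraries, so that pair had no order. Merged exons of all transcripts are longer for Irf8 and Runx1, and with them Irf8 came to 19.5 CPM per kb, next below Cebpa, and Runx1 to 4.77 CPM per kb, below Cebpe and Klf4. Bulk RNA cannot tell fewer cells of a type from less RNA per cell, which holds for every level given here.

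**Figure D1:**
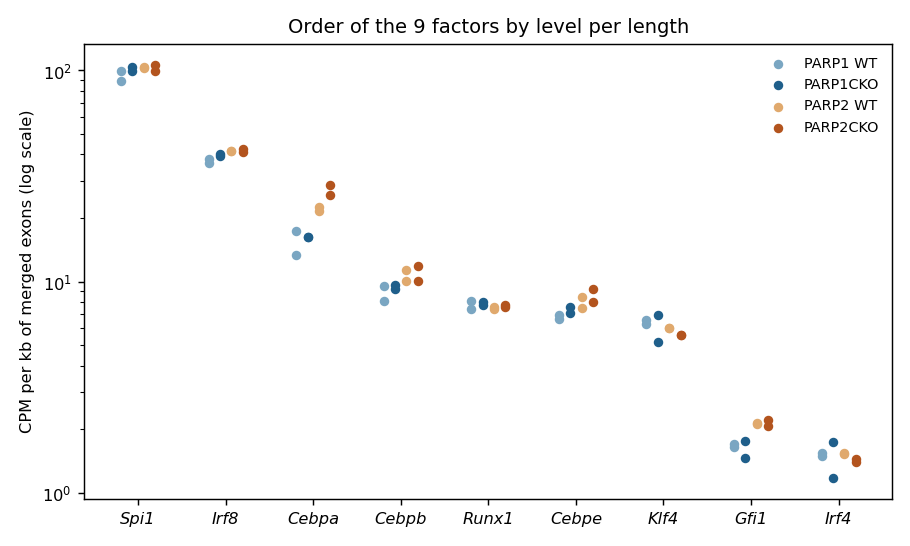
Level of each gene in CPM per kb of merged exon (log axis), with 1 point per library colored by group. Spi1, Irf8 and Cebpa lie highest, at means of 101, 40.1 and 20.2 CPM per kb, and Gfi1 and Irf4 lie lowest, at 1.89 and 1.48.

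The first comparison asked how loss of PARP2 in myeloid cells altered these factors. None of the 9 genes passed an adjusted p-value of 0.05 in PARP2CKO against PARP2 WT (quasi-likelihood test of edgeR, Benjamini-Hochberg adjustment over 13197 genes), beside 0.053% of all genes, and DESeq2 and the likelihood-ratio test also called none. A single member, Cebpa, had an unadjusted p-value under 0.05, beside 4.83% of all genes, and 4 of the 9 had groups that did not overlap, beside 37.2%. Fold changes were small on the whole, with a median log2 fold change of 0.01 for the 9 genes and 0.00 for all genes.

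Cebpa, on chromosome 7 of mm10 from 35119293 to 35121928, is an intronless gene. It was at 59.5 and 56.6 CPM in the PARP2 WT libraries and at 76.0 and 67.8 CPM in PARP2CKO. Both PARP2CKO libraries were above both PARP2 WT libraries, and they were also the highest of the 8. The log2 fold change was 0.31 (standard error 0.103, 95% interval 0.08 to 0.54), which is 1.24-fold, with an unadjusted p-value of 0.0150 and an adjusted p-value of 0.888 from the quasi-likelihood test. Leaving out each library in turn gave values from 0.22 to 0.39. The difference therefore did not pass the threshold over all genes, where it ranked 205 by p-value. The macrophage marker list summed to 4721 and 4960 CPM in PARP2 WT, and in PARP2CKO to 5309 and 4967 CPM. The monocyte list went from 3905 and 4037 CPM to 4529 and 4323 CPM, the osteoclast list from 221 and 227 CPM to 268 and 249 CPM, and the basophil and mast cell list from 16.7 and 13.6 CPM to 8.94 and 11.3 CPM. Most of the osteoclast sum was Atp6v0d2 (106 and 127 CPM, then 146 and 142 CPM) and Nfatc1 (68.1 and 68.3 CPM, then 69.0 and 66.4 CPM). Calcr of the same list had no count in these libraries, so the sum does not show a rise in osteoclasts. The part of the cells that these lists mark in the level of Cebpa was not tested.

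The other C/EBP genes differed less. Cebpb, on chromosome 2 from 167688915 to 167690418, was at 15.1 and 17.1 CPM without Cre and 15.1 and 17.7 CPM in PARP2CKO, so the groups overlapped and the log2 fold change was 0.03 (95% interval -0.21 to 0.27). In GENCODE 20.7% of its exon length is overlapped by Tmem189 on the other strand, and the strand setting of the counting is not given in the sources used here, so its counts may hold reads of both genes. Cebpe, on chromosome 14 from 54710360 to 54712174, was at 10.4 and 9.32 CPM in PARP2 WT, against 11.4 and 9.88 CPM in PARP2CKO, again with overlap (log2 fold change 0.11, 95% interval -0.11 to 0.33).

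Spi1, on chromosome 2 from 91082390 to 91115756, was at 211 and 209.9 CPM in the PARP2 WT libraries and 217 and 203 CPM in those of PARP2CKO, with the PARP2 WT values inside the range of PARP2CKO. Its log2 fold change was -0.01, with a 95% interval from -0.14 to 0.13, that is from 0.91-fold to 1.09-fold. Runx1, on chromosome 16 from 92601466 to 92826149, was at 56.3 and 55.3 CPM without Cre and 56.5 and 57.8 CPM in PARP2CKO. Its groups did not overlap, by a margin smaller than the gap between the replicates of either group, and its log2 fold change was 0.04 (95% interval -0.07 to 0.14).

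Among the branch factors, Irf8, on chromosome 8 from 120736358 to 120756694, was at 143 and 143 CPM in PARP2 WT, against 141 and 146 CPM in PARP2CKO. The PARP2 WT values lay between those of PARP2CKO, and the log2 fold change was 0.00 (95% interval -0.09 to 0.09). Gfi1, on chromosome 5 from 107716657 to 107726036, was at 6.66 and 6.55 CPM in the PARP2 WT libraries and 6.89 and 6.40 CPM in those of PARP2CKO (log2 fold change 0.01, 95% interval -0.24 to 0.26). Klf4, on chromosome 4 from 55527143 to 55532466, was at 18.3 and 18.2 CPM without Cre and 16.8 and 16.9 CPM in PARP2CKO (log2 fold change -0.11, 95% interval -0.38 to 0.15). Irf4, on chromosome 13 from 30749226 to 30766976, was at 7.35 and 7.25 CPM in PARP2 WT, against 6.84 and 6.67 CPM in PARP2CKO (log2 fold change -0.11, 95% interval -0.46 to 0.24). Klf4 and Irf4 were lower in both PARP2CKO libraries, but the intervals, which use the spread of all 4 groups, include 0. Replicates of both genes were far apart in PARP1CKO, as shown next.

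**Figure D2:**
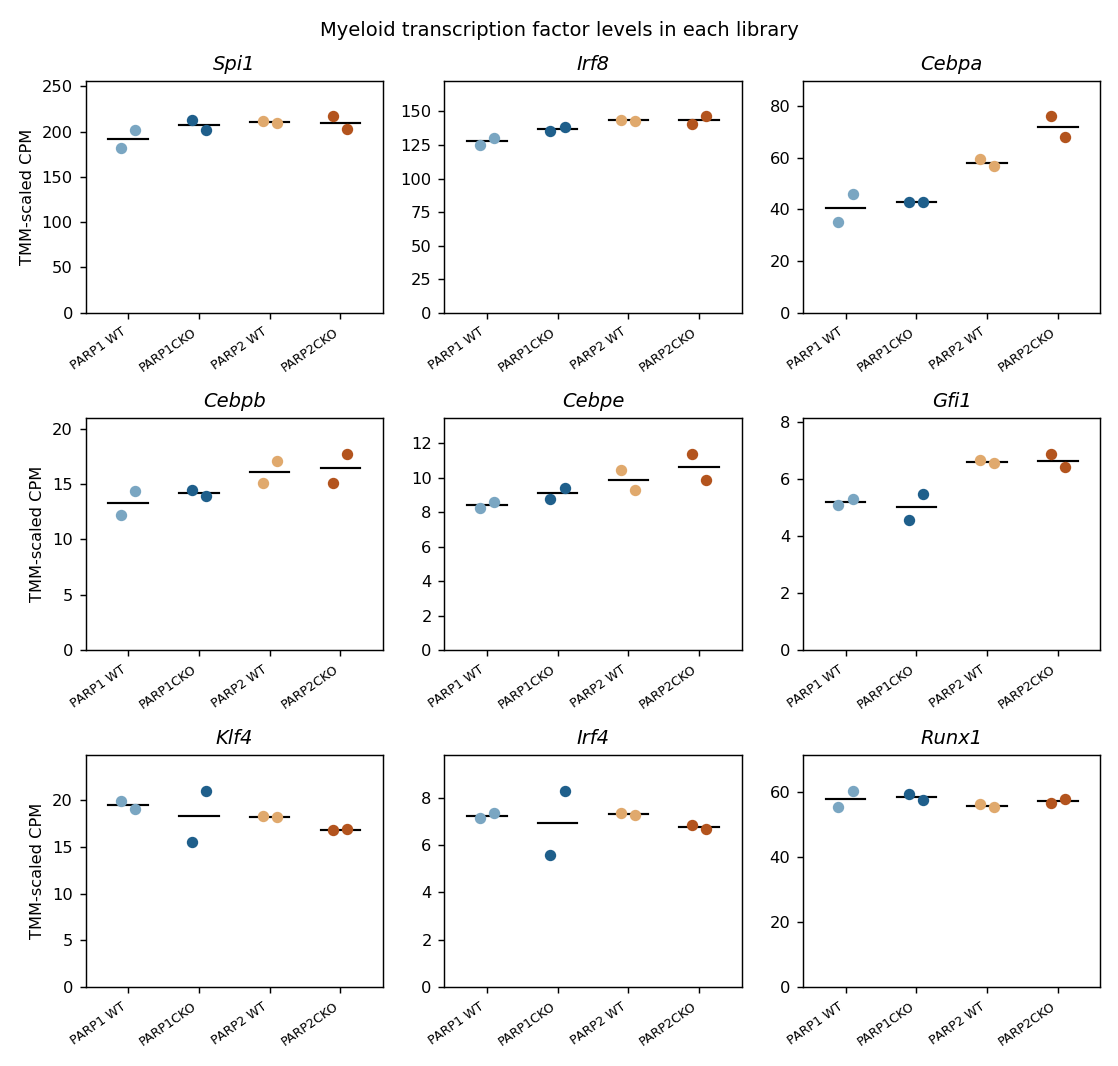
TMM-scaled CPM (vertical axes, from 0) of the 9 genes in the 4 groups, with 1 point per library, replicate 1 on the left, and a bar at the mean of the 2 libraries. Cebpa lies at a mean of 40.6 CPM in PARP1 WT, then 58.1 CPM in PARP2 WT, with 71.9 CPM in PARP2CKO, and the bars of Spi1, Irf8 and Runx1 lie close together.

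The same question was asked of PARP1. In PARP1CKO against PARP1 WT none of the 9 genes was called by the quasi-likelihood test, beside 0.106% of all genes, nor by DESeq2 or the likelihood-ratio test. Irf8 alone had an unadjusted p-value under 0.05, beside 11.3% of all genes, and 2 of the 9 had groups that did not overlap, beside 41.2%. Of the 9 genes 6 were higher and 3 lower, with log2 fold changes from -0.09 for Klf4 to 0.11 for Cebpe and a median of 0.07, against 0.01 for all genes. Irf8 was at 125 and 130.2 CPM in PARP1 WT and 135 and 138 CPM in PARP1CKO. Both PARP1CKO libraries were higher, by 1.07-fold on average (log2 fold change 0.10, standard error 0.0405, unadjusted p = 0.0413, adjusted p = 0.421 from the quasi-likelihood test). Erythroid markers, with rows of identical counts taken once, summed to 4.21 and 3.51 CPM in PARP1 WT and to 5.61 and 7.10 CPM in PARP1CKO. All 5 distinct rows tested were higher and none was called, with the smallest p-value for α-globin (Hba-a1, log2 fold change 0.88, unadjusted p = 0.00072, adjusted p = 0.156), and their part in these levels was not tested. Cebpe, the other gene without overlap, was at 8.24 and 8.61 CPM in PARP1 WT and 8.78 and 9.42 CPM in PARP1CKO.

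Cebpa was at 35.2 and 46.0 CPM in PARP1 WT and at 42.9 and 42.8 CPM in PARP1CKO. The PARP1CKO values lay between the PARP1 WT values, which differed by 1.31-fold, the widest gap between replicates of this gene. Its log2 fold change of 0.07 (95% interval -0.17 to 0.32) went to -0.10 without PARP1 WT replicate 1. Spi1 was also lowest in that library, at 182 CPM, where replicate 2 had 202 CPM and PARP1CKO had 212 and 201 CPM (log2 fold change 0.11, 95% interval -0.03 to 0.24). Cebpb was lowest there as well, at 12.2 and 14.4 CPM in PARP1 WT and 14.5 and 13.9 CPM in PARP1CKO. Runx1 was at 55.5 and 60.4 CPM in PARP1 WT and 59.5 and 57.6 CPM in PARP1CKO, with overlap (log2 fold change 0.01).

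Klf4, Irf4 and Gfi1 were spread by the PARP1CKO libraries themselves. Klf4 was at 15.6 CPM in PARP1CKO replicate 1 and 21.0 CPM in replicate 2, on either side of 20.0 and 19.0 CPM in PARP1 WT. Irf4 was at 5.57 and 8.30 CPM in PARP1CKO, a 1.49-fold gap and the widest between replicates of any of the 9 genes, on either side of 7.13 and 7.34 CPM in PARP1 WT. Gfi1 was at 4.54 and 5.46 CPM in PARP1CKO and 5.09 and 5.28 CPM in PARP1 WT. For all 3 genes the log2 fold change turned positive without PARP1CKO replicate 1 (0.11, 0.20 and 0.07) and was more negative without replicate 2 (-0.32, -0.38 and -0.19), and none was called in either case. The dendritic cell list moved the same way between these libraries, with a sum of 415 CPM in replicate 1 and 564 CPM in replicate 2, against 510 and 507 CPM in PARP1 WT. Most of the sum was Cd74 (309 and 415 CPM) and H2-Ab1 (62.5 and 88.1 CPM), MHC class II genes that B cells also express. Of the 11 genes of the list 9 were higher in replicate 2, among them Flt3 (4.38 and 6.41 CPM) and Siglech (3.71 and 5.73 CPM), and Batf3 and Clec9a, both under 3 CPM, were lower. The B cell list (31.7 and 44.5 CPM) and the basophil and mast cell list (23.4 and 32.1 CPM) were higher in replicate 2 as well. The part of these cells in the levels of the 3 genes was not tested.

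Whether the effects of the deletions differed was tested directly. No member passed when the PARP2CKO effect was set against the PARP1CKO effect (quasi-likelihood test), beside 0.0152% of all genes, no member reached an unadjusted p-value under 0.05, beside 7.69%, and DESeq2 and the likelihood-ratio test called none. The effects differed most for Cebpa, by 0.23 on the log2 scale (95% interval -0.10 to 0.57, unadjusted p = 0.150, adjusted p = 0.750). For Spi1 the difference was -0.11 (95% interval -0.30 to 0.07) and for Irf8 -0.10 (95% interval -0.22 to 0.03). With 2 libraries per group, the 95% interval of a fold change in the deletion comparisons spanned a factor of between 1.07 and 1.29 on either side of the estimate.

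**Figure D3:**
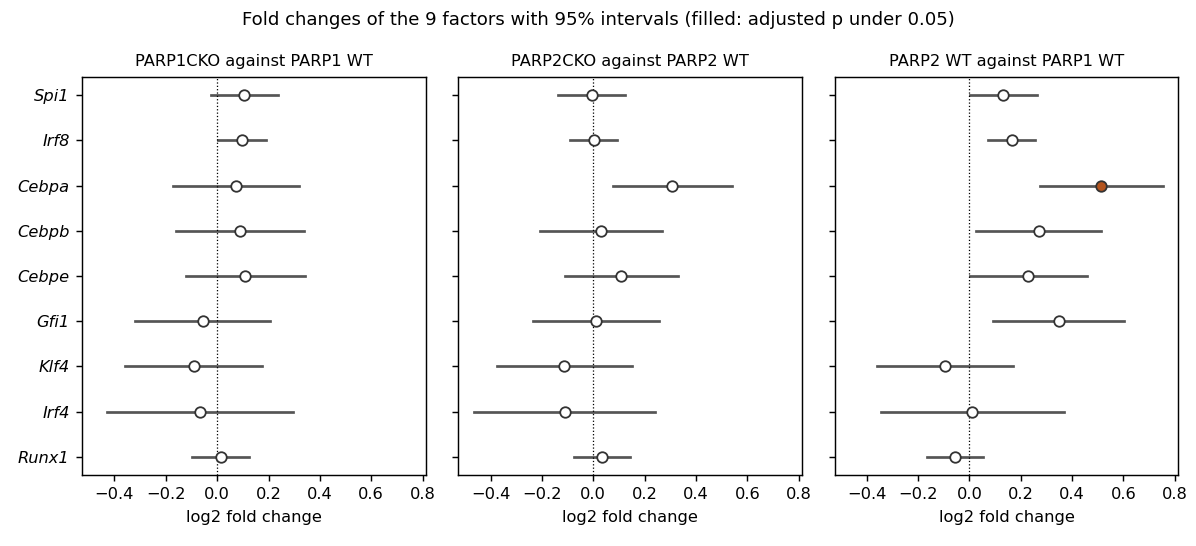
Log2 fold change (horizontal axis) of each gene with its 95% interval from the quasi-likelihood fit, in 3 comparisons. Filled points passed an adjusted p-value of 0.05, which applies to Cebpa in PARP2 WT against PARP1 WT alone (log2 fold change 0.51), and the deletion comparisons hold no filled point.

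Larger differences lay between the floxed lines. The Cre-free groups were compared to give the baseline against which each deletion is read, and line, breeding and any handling that went with them cannot be told apart. In PARP2 WT against PARP1 WT, 1 of the 9 genes was called by the quasi-likelihood test, beside 3.16% of all genes, an unadjusted p-value under 0.05 was found for 6, beside 18.9%, and 7 had groups that did not overlap, beside 51.9%. Cebpa was the gene called, with 40.6 ± 7.64 CPM in PARP1 WT and 58.1 ± 2.06 CPM in PARP2 WT (SD, n = 2). This is a 1.43-fold difference, or 0.51 on the log2 scale (standard error 0.106, 95% interval 0.27 to 0.75), with an adjusted p-value of 0.0383. This call rested on few libraries. It was lost with only the 4 WT libraries in the fit (adjusted p = 0.0652), and the log2 fold change fell to 0.34 without PARP1 WT replicate 1 (adjusted p = 0.114) and rose to 0.72 without replicate 2. Without PARP2 WT replicate 1 or 2 it was 0.48 or 0.55, with adjusted p-values of 0.164 and 0.121 from the same test. The range of adjusted p-values over the alternatives was 4.88e-05 to 0.164.

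Gfi1 was 1.27-fold higher in PARP2 WT, at 6.66 and 6.55 CPM against 5.09 and 5.28 CPM (log2 fold change 0.35, standard error 0.112, adjusted p = 0.145), and did not pass the threshold. Irf8, at 143 ± 0.165 CPM against 128 ± 3.45 CPM, differed by 0.17 on the log2 scale (standard error 0.0404, adjusted p = 0.0674), and did not pass the threshold. It was called by the likelihood-ratio test (adjusted p = 0.0338) and without a filter on low counts (adjusted p = 0.0471), but under no other alternative. Over the alternatives the log2 fold change of Irf8 lay between 0.13 and 0.19. Cebpb (0.27), Cebpe (0.23) and Spi1 (0.13) also had positive log2 fold changes, with adjusted p-values of 0.225, 0.259 and 0.260 from the quasi-likelihood test. Irf4 had overlapping groups (log2 fold change 0.01), and Runx1 and Klf4 had log2 fold changes of -0.06 and -0.10 with 95% intervals that include 0.

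With the CKO libraries included, Cebpa, Cebpb, Irf8 and Gfi1 were higher in all 4 libraries of the PARP2 line than in all 4 of the PARP1 line. This held for 4 of the 9 genes, beside 10.5% of all genes in that direction and 20.4% in either, and it was not tested as a contrast. The lowest value of Cebpa in the PARP2 line was 56.6 CPM and the highest in the PARP1 line 46.0 CPM. For Gfi1 these values were 6.40 and 5.46 CPM, for Irf8 141 and 138 CPM and for Cebpb 15.1 and 14.5 CPM. Markers of other cells differed between the lines as well. Of 8 B cell markers, 7 were tested, and all 7 were called lower in PARP2 WT, with sums of 35.3 and 30.3 CPM in PARP1 WT and 11.6 and 9.65 CPM in PARP2 WT. The macrophage list was higher in PARP2 WT for 9 of its 9 tested genes, of which Mertk and Apoe were called, with a median log2 fold change of 0.21 (0.11 to 0.30 with a library left out) and sums of 3979 and 4340 CPM in PARP1 WT and 4721 and 4960 CPM in PARP2 WT. Among erythroid markers the α-globin genes Hba-a1 and Hba-a2 have identical counts, as do the β-globin genes Hbb-bs and Hbb-b1, and each pair was taken once. Of the 5 distinct rows then tested 1, α-globin, was called lower in PARP2 WT, and the distinct rows summed to 4.21 and 3.51 CPM in PARP1 WT and to 1.88 and 1.90 CPM in PARP2 WT. Basophil and mast cell markers were lower in PARP2 WT for 7 of 7 genes with no call, 6 of them at an unadjusted p-value under 0.05, and summed to 28.5 and 27.3 CPM against 16.7 and 13.6 CPM. Of 6 tested osteoclast markers 4 were higher in PARP2 WT, of which Atp6v0d2 and Ctsk were called, and 2, Dcstamp and Nfatc1, were lower without a call. The list summed to 155 and 159 CPM against 221 and 227 CPM, with Atp6v0d2 at 67.2 and 64.8 CPM against 106 and 127 CPM. Without PARP1 WT replicate 1 the calls among these lists went from 7 to 3 for B cells, from 2 to 0 for macrophages and from 2 to 1 for osteoclasts, and α-globin was not called (adjusted p = 0.0963). α-globin was also not called without PARP2 WT replicate 1 or 2 (adjusted p = 0.0506 and 0.0799), Ctsk was called in 1 of the 4 fits that each left out a WT library, and the B cell gene Vpreb3 in none of them. The part of these cells in the levels of the 9 genes was not tested.

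Ratios of factors within a library do not depend on library scaling. The log2 ratio of Cebpa to Spi1 was -1.83 and -1.89 in PARP2 WT, against -1.51 and -1.58 in PARP2CKO. It was thus 0.31 higher in PARP2CKO, with both PARP2CKO libraries above both PARP2 WT libraries (exact permutation test, two-sided, p = 0.33, the smallest that 2 against 2 libraries can give). In the PARP1 line it was -2.37 and -2.14 in PARP1 WT and -2.31 and -2.23 in PARP1CKO, a difference of -0.02. The ratio of Gfi1 to Irf8, which sets the granulocytic repressor against the monocytic factor, was -4.62 and -4.62 in PARP1 WT and -4.90 and -4.66 in PARP1CKO, lower in both libraries by 0.16 on average (exact permutation test, two-sided, p = 0.33). In PARP2 WT it was -4.43 and -4.45, and in PARP2CKO -4.35 and -4.52, so the lines did not overlap while the PARP2CKO and PARP2 WT libraries did. The ratio of Cebpe to Irf8 lay between -3.94 and -3.62 in the PARP2 line and between -3.94 and -3.87 in the PARP1 line, with overlap. The ratio of Cebpb to Cebpa was -1.98 and -1.73 in PARP2 WT, with -2.33 and -1.93 in PARP2CKO, against -1.53 and -1.68 in PARP1 WT and -1.57 and -1.63 in PARP1CKO.

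**Figure D4:**
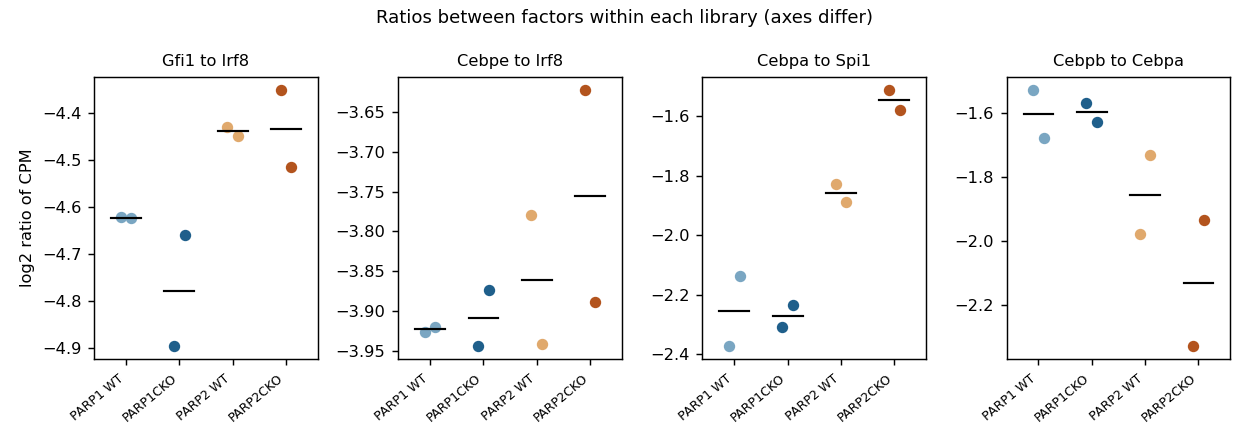
Log2 ratio of CPM between pairs of factors (vertical axes, which differ between panels) in the 4 groups, with 1 point per library and a bar at the mean. The ratio of Cebpa to Spi1 lies between -2.37 and -2.14 in the PARP1 line, at -1.83 and -1.89 in PARP2 WT and at -1.51 and -1.58 in PARP2CKO.

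Other transcription factors of the haematopoietic network were read from a list of 42 genes, all of which were tested. None was called in either deletion comparison, and 4 of the 42 in PARP1CKO and 5 of the 42 in PARP2CKO had an unadjusted p-value under 0.05, beside 11.3% and 4.83% of all genes. DESeq2 and the likelihood-ratio test each called 1 of them in PARP1CKO, beside 86 and 146 of all genes, and 0 in PARP2CKO, beside 27 and 39. The median log2 fold change of the list was -0.03 in both, against 0.01 and 0.00 for all genes, and in PARP1CKO it was 0.00 without PARP1CKO replicate 1 and -0.07 without PARP1 WT replicate 1. In PARP1CKO the smallest p-values were those of Klf6, a zinc finger factor related to Klf4, at 402 and 384 CPM in PARP1 WT and 345 and 328 CPM in PARP1CKO (log2 fold change -0.22, adjusted p = 0.176), and of Mef2c (-0.20) and Id2 (-0.14). In PARP2CKO the small p-values included those of Lyl1 (-0.21, quasi-likelihood test, adjusted p = 0.622) and Hhex (-0.11). Cbfb, whose product is the partner of RUNX1 on DNA, lay between 164 and 179 CPM in all 8 libraries, and its log2 fold changes were -0.08 and -0.03.

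Between the lines 4 of the 42 were called, beside 3.16% of all genes, and without PARP1 WT replicate 1 the count was 1. Egr2, induced by M-CSF in macrophages, was at 4.60 and 4.68 CPM in PARP1 WT and 10.9 and 11.1 CPM in PARP2 WT (log2 fold change 1.25, quasi-likelihood test, adjusted p = 0.00159). Id2, an inhibitor of E proteins, and Tal1, a factor of early and erythroid progenitors, were lower in PARP2 WT, with log2 fold changes of -0.28 and -0.36. Egr2 was called with each of the 4 WT libraries left out, Id2 only without PARP1 WT replicate 2, and Tal1 in none of these fits (adjusted p from 0.0685 to 0.140, quasi-likelihood test).

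Known targets were described beside their regulators. Of 16 genes bound by PU.1 or C/EBP factors, none was called in either deletion comparison, and 2 in PARP1CKO and 3 in PARP2CKO had an unadjusted p-value under 0.05, beside the same 11.3% and 4.83%. DESeq2 called 1 and 2 of them, beside 86 and 27 of all genes. The likelihood-ratio test called 1 and 1, beside 146 and 39 of all genes. Lyz2, which encodes lysozyme M and whose locus drives the Cre, was at 5712 and 6387 CPM in PARP1 WT and 3495 and 4334 CPM in PARP1CKO, and at 9725 and 10804 CPM without Cre and 6742 and 5747 CPM in PARP2CKO. It was among the genes with an unadjusted p-value under 0.05 in both deletion comparisons. Both CKO groups carried the Cre, so an effect of the Cre allele on Lyz2 cannot be told apart from one of the deletions. The log2 fold changes of Lyz2, -0.63 and -0.72, had adjusted p-values of 0.135 and 0.187 from the quasi-likelihood test, and the gene was called higher in PARP2 WT than in PARP1 WT (0.76, adjusted p = 0.0117). That call was lost without PARP1 WT replicate 1 (adjusted p = 0.114) or PARP2 WT replicate 2 (adjusted p = 0.0699). Csf1r, which encodes the receptor for M-CSF, stayed between 1134 and 1273 CPM over all libraries. After Lyz2 the smallest p-values were those of Ncf4 (-0.12) and Cd14 (0.15) in PARP1CKO and of Ctss (0.25) and Fcgr1 (0.15) in PARP2CKO.

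Granule genes follow the stages that C/EBPα, GFI1 and C/EBPε serve. None of the 7 tested genes of primary granules was called in a deletion comparison by any of the 3 tests, 1 in each comparison had an unadjusted p-value under 0.05 (beside 11.3% and 4.83% of all genes), and the median log2 fold change over the list was -0.07 in PARP1CKO and -0.05 in PARP2CKO. In PARP1CKO it changed sign without PARP1CKO replicate 1 (0.093) and was -0.16 without replicate 2. Cst7, which encodes cystatin F, had the smallest p-value of the list in both (-0.28 and -0.26, adjusted p = 0.279 and 0.849). Of the 7 genes 2 were higher and 5 lower in PARP1CKO, and 3 were higher and 4 lower in PARP2CKO. Elane, which encodes neutrophil elastase, had log2 fold changes of -0.07 and -0.13, and Prtn3, which encodes proteinase 3, had 0.09 in PARP1CKO. Ctsg, which encodes cathepsin G, had -0.16 in PARP2CKO, where Mpo had 0.13. Between the lines 6 of the 7 genes were higher in PARP2 WT, and 1, Cst7, was lower without a call (log2 fold change -0.30). The quasi-likelihood test called 2 of the 7, beside 3.16% of all genes. Prtn3 (27.5 and 32.9 CPM in PARP1 WT, 43.7 and 44.2 CPM in PARP2 WT; log2 fold change 0.54, adjusted p = 0.0197) and Elane (0.42, adjusted p = 0.0269) were called higher in PARP2 WT by this test. Both kept the call without PARP1 WT replicate 2 alone, and with each of the other 3 WT libraries left out their adjusted p-values were between 0.0756 and 0.183. Of the 10 genes of later granules none was called in a deletion comparison by the quasi-likelihood test. An unadjusted p-value under 0.05 was found for 1 in PARP1CKO and 2 in PARP2CKO, beside the same shares. DESeq2 and the likelihood-ratio test each called 1 in PARP2CKO alone, beside 27 and 39 of all genes. In PARP2CKO 9 of the 10 were lower, with a median of -0.20 that was -0.11 without PARP2CKO replicate 2. Mmp9, which encodes gelatinase B, was at 29.2 and 32.5 CPM in PARP2 WT, against 24.4 and 21.5 CPM in PARP2CKO (log2 fold change -0.43, adjusted p = 0.557), and it was called lower in PARP2 WT than in PARP1 WT (-0.63, adjusted p = 0.0112), a call that was kept without PARP2 WT replicate 2 and lost without each of the other 3 WT libraries (adjusted p from 0.0501 to 0.0702). Over the whole list the lines differed the other way, with 8 of the 10 genes higher in PARP2 WT and 2 lower. The median log2 fold change between the lines was 0.22, and 0.15 to 0.35 with a WT library left out. After Mmp9, Cd177 (-0.22) and Padi4 (-0.20) came next in PARP2CKO, and Camp (0.29), Chil3 (-0.22) and Olfm4 (-0.48) had the smallest p-values in PARP1CKO.

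Genes with the most similar pattern were looked for among 9783 genes with a mean of at least 5 CPM, by Pearson correlation of log2 CPM over the 8 libraries. The libraries fall into the floxed lines, so a gene that differs between lines resembles any other that does, and the values are a description. For Cebpa the closest included Mgmt (r = 0.99) and Mgat5 (0.99), and for Gfi1 they were Lta4h (0.99), Amz1 (0.98) and Pstpip2 (0.97). Cebpe was closest to Rab7 (0.98), Mfge8 (0.98) and Tfeb (0.98), Cebpb to Kctd12b (0.99), Arhgap23 (0.97) and U2af1l4 (0.96), and Irf8 to Ccdc125 (0.99), Nelfe (0.98) and Trpv4 (0.96). Spi1 was closest to Dcakd (0.99), Adrm1 (0.99) and Cox6a1 (0.98), Klf4 to Uap1, Gcnt2 and Scaper (each 0.97), Irf4 to Ogfrl1 (0.96), Sorl1 (0.96) and Tmem50b (0.92), and Runx1 to Sbds (0.96), Atm (0.96) and 4931406P16Rik (0.92). Among the 9 genes themselves the highest values were those of Irf4 with Klf4 (0.89) and of Cebpa with Cebpe (0.89), and the lowest was that of Spi1 with Klf4 (-0.63).

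The spread between replicates differed among the genes. The SD of log2 CPM within groups was 0.03 for Irf8 and 0.05 for Runx1, and 0.15 for Cebpa, 0.15 for Klf4 and 0.20 for Irf4, against a median of 0.07 over all genes tested. Irf8 had less spread than most genes of its level, since 19.2% of the 500 genes nearest in level had a smaller SD. For Cebpa 97.8%, for Klf4 92.0% and for Irf4 89.2% of such genes had a smaller SD. The factor with the largest difference between lines was therefore also among those with the widest replicates for its level.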

How the data were processed

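Total RNA (4 µg per library) of M-CSF-expanded marrow cells was sequenced from 4 groups of 2 libraries. The authors trimmed the single-end reads, mapped them to mm10 with TopHat2 2.0.12, marked duplicates with Picard 1.127 and counted reads on genes with featureCounts; they deposited raw counts. The annotation, the strand setting and the treatment of duplicates are not given in the sources used here. Replicates differed by more than sampling noise (chi-square per gene between 8.56 and 12.9).

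The members and gene lists were chosen with earlier results of these data known. Genes that passed edgeR's filterByExpr were fitted in 1 model of the 4 group means over the 8 libraries with TMM factors (0.965 to 1.03), and tested by the quasi-likelihood test of edgeR at a Benjamini-Hochberg adjusted p of 0.05 (R 4.3.3, edgeR 4.0.16, DESeq2 1.42.0; figures with matplotlib 3.10.9). The test was also run on simulated counts, whose outcome is not given here and on which no result rests. Named genes were Parp1, Parp2, the 9 members, genes called in the transcription factor, target and granule lists or else the 3 with the smallest p in each deletion comparison, the 3 genes most like each member, and abundant cell type markers. Csf1r, Cbfb and the markers called between lines were added after their values were seen. An item withheld from this text is not reported here. Positions and lengths are those of GENCODE M21 (GRCm38). Alternatives were other scaling, tests, filters, the 4 libraries of a comparison, a replicate block and each library left out.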

Additional observations from a re-analysis of the deposited data

How the results depend on the processing

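The counts of members called were 0 in both deletion comparisons and in their difference under every alternative run. In PARP2 WT against PARP1 WT the count was 1 and became 2 with the likelihood-ratio test or without a filter on low counts (Cebpa and Irf8), and 0 with only the 4 libraries of the comparison, 0 with a replicate block and 0 with the crossed pairing. Cebpa then had an adjusted p-value of 0.0657 (log2 fold change 0.52) under the block. With each library left out it was between 0 and 1. The tally over members covered 459 fold changes under the alternatives other than the crossed pairing. Of these 416 kept their direction and their side of the threshold, 5 lost a call, 2 gained one and 36 changed sign, all of the 36 without a call.

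Counts over all genes moved more. In PARP1CKO 14 genes became 86 with DESeq2, 146 with the likelihood-ratio test and 101 without a filter, and between 1 and 34 with a library left out. In PARP2CKO 7 became 27, 39 and 26 under the same alternatives, and between 6 and 19. The difference went from 2 to 45, 72 and 61, and between 1 and 16. Between the lines 417 became 910 with the likelihood-ratio test and 872 without a filter, and between 85 (without PARP1 WT replicate 1) and 319.

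Outside the fits that left out a library, signs changed for values near 0. Leaving out a library also turned larger values, such as those of Klf4 in PARP1CKO (-0.09) and Cebpe in PARP2CKO (0.11). In PARP2CKO Irf8 went to -0.024 and Gfi1 to -0.017 with library size alone, and Irf8 to -0.00021 without a filter. Between the lines Irf4 went to -0.027 with library size alone. The difference for Cebpe was 0.0041 with DESeq2 size factors, 0.0032 with DESeq2, 4.16e-05 with the likelihood-ratio test and 8.03e-06 with the replicate block. With a library left out the log2 fold changes ranged in PARP1CKO from -0.10 to 0.28 for Cebpa, -0.023 to 0.21 for Cebpb, -0.38 to 0.20 for Irf4, -0.32 to 0.11 for Klf4, -0.19 to 0.073 for Gfi1 and -0.048 to 0.074 for Runx1. In PARP2CKO they ranged from -0.055 to 0.042 for Spi1, -0.089 to 0.14 for Cebpb, -0.0019 to 0.21 for Cebpe, -0.027 to 0.030 for Irf8 and -0.046 to 0.061 for Gfi1. The difference ranged from -0.18 to 0.056 for Cebpb, -0.11 to 0.10 for Cebpe, -0.31 to 0.27 for Irf4, -0.22 to 0.21 for Klf4, -0.063 to 0.20 for Gfi1 and -0.037 to 0.084 for Runx1, and the line comparison from -0.0079 to 0.032 for Irf4 and -0.12 to 0.0058 for Runx1. The cause was not tested.

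The replicate numbers are shared by the groups, but the deviations of same-numbered libraries correlated at -0.13 in the PARP1 line and 0.15 in the PARP2 line, so the numbers did not pair the libraries, and the pairing was crossed in the PARP1 line as an alternative chosen after seeing the data. Lengths from all transcripts were likewise added later. Leaving out 1 library leaves a lone sample that is assumed to vary like the other groups.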
